A study of Mus musculus with 8 samples.

Results

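Long intergenic noncoding RNAs (lincRNAs) are RNA polymerase II transcripts that lie between protein-coding genes, are often spliced and polyadenylated, and carry no long open reading frame. The lincRNAs described here are those of mouse kidney, genes that the deposited table types as lincRNA. Each had a mean over the 8 libraries of at least 1 FPKM (reads scaled by gene length and a size value of each library). They number 157 of the 5559 lincRNA genes in the table, or 2.824%, and the table holds 54532 genes in all. They were chosen by their mean FPKM, so their levels are a description and are not tested. The rule took the mean over both groups together and did not use the difference between them.

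The libraries were made from polyadenylated RNA of kidney, captured with poly-T beads. The 4 BPA libraries came from ICR mice, an outbred stock, given bisphenol A (BPA), a plastics monomer that binds estrogen receptors weakly. The 4 vehicle libraries came from ICR mice given vehicle alone. No allele or transgene is named for either group, and the sources used here give no dose, route, duration, age or sex. Nothing says that the libraries of a group came from separate animals, so a p-value here speaks only of how much these samples vary, and that variation could be technical. In whole kidney, fewer cells of a type and less RNA per cell cannot be told apart.

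Reads recovered from the FPKM values totalled 16178630 to 17226655 in BPA libraries and 15944081 to 17351540 in vehicle libraries. Tubule and collecting duct genes such as Lrp2, Slc34a1, Umod and Aqp2 were detected in every library. The steroidogenic gene Cyp11a1 and the sperm genes Prm1 and Tnp1 were at 0 in all 8. Another steroidogenic gene, Star, was at 0.531 to 1.05 FPKM in every library. Cyp11b1 was above 0 only in vehicle replicate 4, at 0.0728 FPKM. BPA replicate 4 stood apart, with 17174 genes above 0 against 19090 to 20845 in the other libraries. Vehicle replicate 4 held skeletal muscle and B cell transcripts, with Acta1 at 103 FPKM and Cd79a at 17.1 FPKM, against 0 FPKM and at most 1.14 FPKM elsewhere. It was also the highest in the fat gene Adipoq, at 22.2 FPKM, with vehicle replicate 2 next at 7.17 FPKM. The fat gene Plin1 had the same order, at 6.16 and 2.05 FPKM. Ucp1 had the reverse, at 7.18 FPKM in vehicle replicate 2, 1.41 FPKM in vehicle replicate 4 and 0 elsewhere. Vehicle replicate 4 was the lowest in the thick ascending limb gene Umod, at 117 FPKM.

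LincRNAs act in several ways. Some are nuclear scaffolds or decoys for proteins, some regulate microRNAs, and many are the primary transcripts from which small nucleolar RNAs (snoRNAs) or microRNAs are cut. Others start beside a coding gene on the opposite strand, where both transcripts can arise from one bidirectional promoter. Their levels are typically lower and more tissue-restricted than those of messenger RNAs.

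Most lincRNA genes of the table were silent or nearly so in kidney. Of the 5559, 1660 (29.86%) had a value above 0 in at least 1 library, whereas 77.59% of the 22046 protein-coding genes did. A mean of at least 1 FPKM was reached by 10325 protein-coding genes, or 46.83%. The median of the lincRNAs above this threshold was 2.103 FPKM, against 6.432 FPKM for the coding genes above it. Only 24 lincRNAs (15.29%) averaged 10 FPKM or more, against 37.29% of the coding genes, and 72 of them (45.86%) lay under 2 FPKM, against 15.06%. Just inside the threshold were Gm8066 at 1.009 FPKM and AC079680.1 at 1.006 FPKM, and just outside it were Gm42595 at 0.9954 FPKM and 4933402C06Rik at 0.9797 FPKM.

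**Figure D1:**
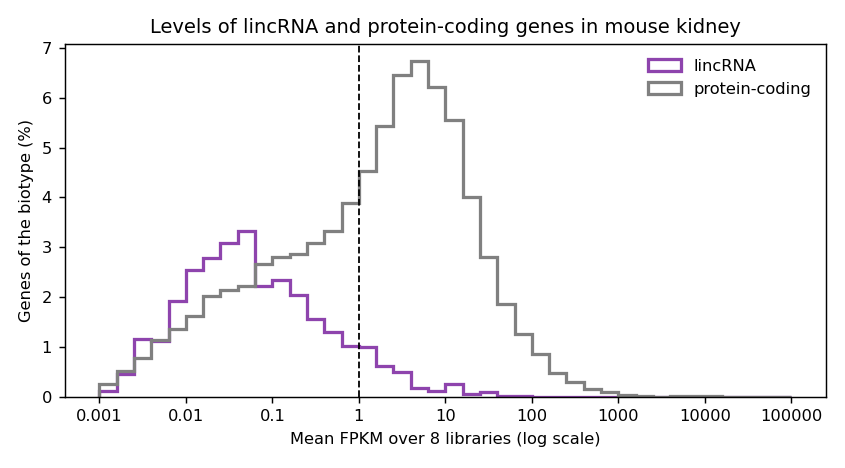
Share of genes of each biotype (y axis, percent) by mean FPKM over 8 libraries (x axis, log scale), for lincRNA genes and protein-coding genes with a mean of at least 0.001 FPKM; the dashed line marks 1 FPKM. The lincRNA distribution lies to the left of the coding one, and 157 lincRNA genes lie at or right of the line.

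The kidney lincRNAs were short genes spread over the genome. Their median exonic length was 1110 bases (range 192 to 20771), against 4266 bases for coding genes at the same threshold, and 24 of them had a single exon in every annotated transcript. Chromosome 6 held the most (14), followed by chromosome 1 (13). Chromosome X held 0 of the 157, although 95 lincRNA genes of any level lie there, and 1 lay on chromosome Y: Gm29650, at 1.24 to 3.57 FPKM in BPA and 0.679 to 2.95 FPKM in vehicle. In the GENCODE M21 annotation (GRCm38) 155 had the coordinates of the table and 154 had the type lincRNA. The other 3 were typed antisense (1700022N22Rik), processed transcript (4833418N02Rik) and protein-coding (AC078895.1). The word intergenic did not hold for each of them: 15 overlapped the span of a coding gene, and 18 shared at least 10% of their exon bases with another annotated gene. Because the sources used here do not state whether the authors counted by strand, reads in shared exon bases cannot be assigned with certainty. Some of the 15, such as D630029K05Rik and Gm10804, share no exon base with another gene.

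Together the 157 genes took 0.178% to 0.215% of the reads of a library. Their FPKM summed to 867.8, 869.5, 847.7 and 822 in BPA replicates 1 to 4, and to 779.1, 805.2, 1031 and 863.9 in vehicle replicates 1 to 4. The BPA sums lay within the range of the vehicle sums. The 10 most abundant lincRNAs held 35.92% to 54.07% of the sum in BPA and 34.09% to 48.31% in vehicle.

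The most abundant lincRNA was D630029K05Rik (chr10:116964707-116969105, plus strand, GRCm38), a gene of 3 exons with no role annotated in the sources used here, whose span overlaps the coding gene Gm10271 but shares no exon base with it. It was at 69.3, 81.7, 78.9 and 81.4 FPKM in BPA replicates 1 to 4, against 50.6, 76.7, 88.9 and 63.7 FPKM in vehicle replicates 1 to 4. The BPA libraries lay close together inside the wider vehicle range (change 0.18 ± 0.17 on the log2(FPKM + 1) scale, SE; limma adjusted p = 0.687). Its promoter and that of the abundant Gm17586 differ widely in base composition, and the promoter of BC049987, a lincRNA taken up below with its neighbour, is given for comparison. Each run covers 250 bases before and 50 bases after the RefSeq start (GRCm38.p6), 5′ to 3′ on the strand of the gene, with CG dinucleotides and TATAAA on either strand in capitals; in D630029K05Rik the motif and its reverse complement overlap.
D630029K05Rik, chr10:116964490-116964789, plus strand: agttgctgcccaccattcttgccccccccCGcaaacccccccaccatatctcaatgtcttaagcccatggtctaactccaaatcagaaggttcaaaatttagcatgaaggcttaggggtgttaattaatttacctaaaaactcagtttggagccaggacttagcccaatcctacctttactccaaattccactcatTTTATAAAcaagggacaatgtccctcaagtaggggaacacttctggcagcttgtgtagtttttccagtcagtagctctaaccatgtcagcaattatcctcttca
Gm17586, chr11:120633500-120633799, plus strand: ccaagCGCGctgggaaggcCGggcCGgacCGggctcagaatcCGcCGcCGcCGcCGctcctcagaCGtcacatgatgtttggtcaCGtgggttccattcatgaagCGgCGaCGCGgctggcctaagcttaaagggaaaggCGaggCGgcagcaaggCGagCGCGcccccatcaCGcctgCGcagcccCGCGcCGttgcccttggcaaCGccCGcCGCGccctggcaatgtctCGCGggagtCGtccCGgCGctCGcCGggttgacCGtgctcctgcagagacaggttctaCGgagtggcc
BC049987, chr9:44672211-44672510, minus strand: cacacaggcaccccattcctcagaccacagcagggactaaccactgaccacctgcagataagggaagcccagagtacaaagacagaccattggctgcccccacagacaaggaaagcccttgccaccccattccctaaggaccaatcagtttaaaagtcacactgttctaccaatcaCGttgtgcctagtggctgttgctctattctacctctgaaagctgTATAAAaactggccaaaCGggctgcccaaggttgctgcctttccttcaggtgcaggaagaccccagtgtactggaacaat

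The D630029K05Rik promoter held 1 CG dinucleotide at 44.3% GC, the Gm17586 promoter held 39 at 69.7% GC, and the BC049987 promoter held 2 at 51.7% GC. RefSeq promoters were matched by symbol or synonym for 78 of the 157 lincRNAs. Their median GC content was 52.3% with 8 CG dinucleotides, and the ratio of observed to expected CG was 0.438. All 32851 RefSeq promoters of the same length had medians of 52.7%, 7 and 0.384. TATAAA on either strand was present in 14.1% of the lincRNA promoters and in 13.6% of all promoters. CCAAT was present in 25.6% against 37.4%, GGGCGG in 33.3% against 35.7%, and CACGTG in 7.69% against 7.15%, each searched on both strands. A match of letters is a description and does not show a bound site.

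Malat1 (chr19:5795690-5802672, minus strand), a nuclear RNA of splicing speckles, was the third most abundant. Its main transcript ends in a triple helix and not in a poly(A) tail, so its level in RNA captured by poly-T need not follow its level in the cell. Malat1 was at 38.8, 32.7, 29.3 and 85.9 FPKM in BPA replicates 1 to 4, against 28.4, 27.3, 28.6 and 23.3 FPKM in vehicle replicates 1 to 4. Every BPA library lay above every vehicle library, and BPA replicate 4 lay far above all others. The change of 0.64 ± 0.30 did not pass the test (limma adjusted p = 0.470), and without BPA replicate 4 it was 0.31.

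Neat1 (chr19:5824708-5845478, minus strand), the scaffold of nuclear paraspeckles and the neighbour of Malat1 on the same strand, showed the other order. Its FPKM is for the whole gene, scaled by 20771 bases, in RNA captured by poly-T. That value need not follow the level of any single transcript of the gene in the cell. Neat1 was at 10.2, 8.82, 8.16 and 3.79 FPKM in BPA replicates 1 to 4, against 13.5, 10.8, 10.6 and 9.96 FPKM in vehicle replicates 1 to 4. Most BPA libraries were lower than the vehicle libraries, the lowest being BPA replicate 4, but BPA replicate 1 lay inside the vehicle range. The change was -0.54 ± 0.25 (limma adjusted p = 0.462), and -0.28 without BPA replicate 4.

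2900097C17Rik (chr2:156388065-156392979, minus strand), which RefSeq names Norad, is a cytoplasmic RNA that binds Pumilio proteins. Norad was at 27.1, 21.5, 23.0 and 40.3 FPKM in BPA replicates 1 to 4, against 23.4, 23.3, 27.6 and 24.2 FPKM in vehicle replicates 1 to 4. Only BPA replicate 4 stood outside the vehicle range on the high side, and the sign of the change, 0.14 ± 0.19 (limma adjusted p = 0.777), turned to -0.05 without that library. Another lincRNA, Gm7292, matched Norad over 2537 aligned bases at 99.17% identity, so reads of the shared stretch may have gone to either gene. Gm7292 took 150, 103, 194 and 106 reads in BPA replicates 1 to 4, against 163, 187, 57 and 150 reads in vehicle replicates 1 to 4, while Norad took 1785 to 3271 reads in BPA and 2049 to 2103 reads in vehicle. Over the 8 libraries the log2(FPKM + 1) values of both had a Pearson r of -0.374 (exact permutation p = 0.338, adjusted over 2 such pairs 0.338). Their Spearman rho was -0.429 (exact permutation p = 0.299, adjusted 0.299). Without the 2 libraries farthest from the median r was -0.851, so its size depends on which libraries are taken.

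1700020I14Rik (chr2:119594297-119607502, plus strand), listed by RefSeq as Oip5os1 and known as Cyrano, directs the decay of a microRNA, miR-7. Cyrano was at 14.7, 14.4, 16.0 and 21.01 FPKM in BPA replicates 1 to 4, against 13.6, 14.3, 12.9 and 12.2 FPKM in vehicle replicates 1 to 4. Every BPA library lay above every vehicle library, by a narrow margin for BPA replicate 2. The change was 0.29 ± 0.13 (limma adjusted p = 0.462), and 0.17 without BPA replicate 4.

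Others of the 10 most abundant lincRNAs varied more between libraries than between groups, and each had overlapping groups. AI314278 ran from 24.0 to 44.1 FPKM in BPA and from 25.9 to 38.3 FPKM in vehicle, Gm12678 from 22.3 to 44.9 FPKM and from 29.6 to 41.5 FPKM, and Tmem250-ps from 31.6 to 38.8 FPKM and from 28.1 to 37.6 FPKM. Gm44386 ran from 7.34 to 29.9 FPKM in BPA and from 12.4 to 38.0 FPKM in vehicle. 1810058I24Rik ran from 11.8 to 24.2 FPKM in BPA and from 19.2 to 28.1 FPKM in vehicle, and Gm10804 from 12.5 to 19.6 FPKM and from 12.1 to 20.1 FPKM. Adjusted p-values of these 6 in limma were 0.706 to 0.986.

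**Figure D2:**
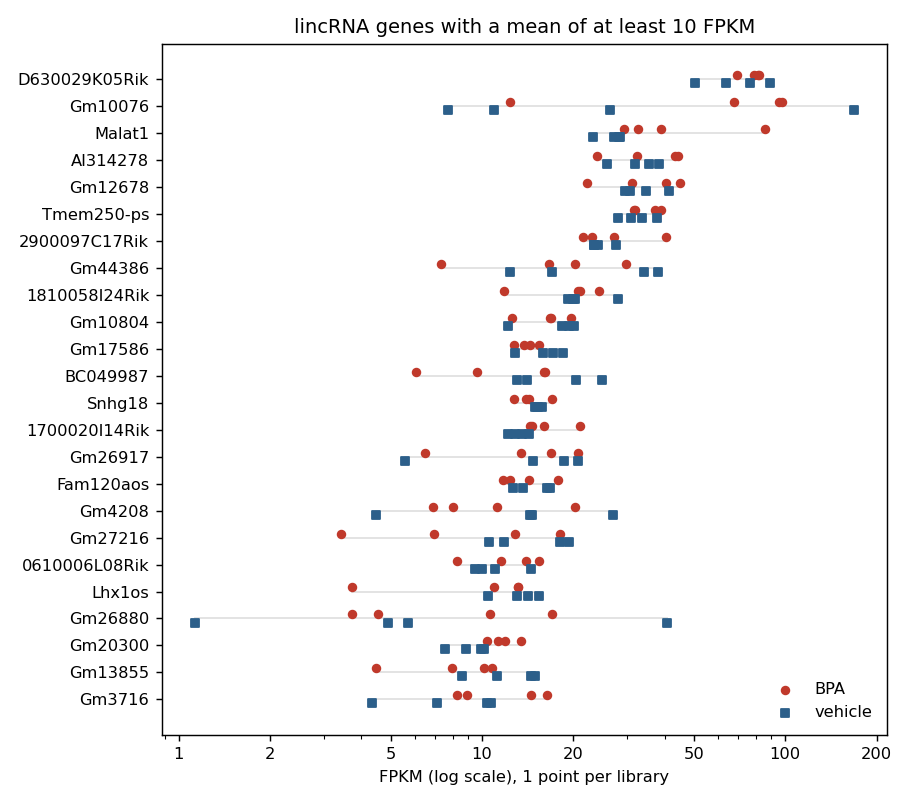
FPKM (x axis, log scale) of the 24 lincRNAs with a mean of at least 10 FPKM, 1 point per library, with BPA as circles and vehicle as squares, ordered by mean. The groups overlap for all of them except Malat1, 1700020I14Rik and Gm20300, whose BPA points all lie right of the vehicle points.

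The second most abundant, Gm10076 (chr14:105681828-105682211, plus strand), is a single-exon gene of 384 bases that is almost identical to the messenger RNA of Rpl41, which encodes a very short protein of the large ribosomal subunit. Of its 384 bases, 383 aligned to Rpl41 at 99.48% identity. The 2 mismatches were C317T and G424A, giving the base of Rpl41, the position from the first base of the Rpl41 transcript and the base of Gm10076, and both lay outside the coding sequence. The 78 coding bases of Rpl41 (positions 232 to 309 of its transcript) stood unchanged at positions 42 to 119 of Gm10076. They are shown because no read inside them can be assigned to one gene by its sequence; the start and stop codons are in capitals.
Rpl41 (chromosome 10) and Gm10076 (chromosome 14): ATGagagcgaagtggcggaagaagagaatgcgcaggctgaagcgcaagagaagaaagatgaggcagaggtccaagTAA

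Gm10076 was at 95.2, 12.3, 67.7 and 97.5 FPKM in BPA replicates 1 to 4, against 11.0, 7.72, 168.5 and 26.4 FPKM in vehicle replicates 1 to 4. High and low libraries occurred in both groups, and the highest was vehicle replicate 3. The change of 1.04 ± 0.98 was the highest among the 157 lincRNAs and did not pass the test (limma adjusted p = 0.677). Rpl41 itself was at 154.3, 270.8, 131.6 and 32.1 FPKM in BPA replicates 1 to 4, against 314.5, 243.6, 176.8 and 298.2 FPKM in vehicle replicates 1 to 4 (change -1.12 ± 0.56, limma adjusted p = 0.483). The libraries with little Rpl41 were those with much Gm10076. Of the reads given to either gene, Gm10076 took 16.9%, 1.48%, 14.5% and 50% in BPA replicates 1 to 4, against 1.13%, 1.03%, 23.9% and 2.83% in vehicle replicates 1 to 4. Over the 8 libraries r between their log2(FPKM + 1) values was -0.622 (exact permutation p = 0.0654, adjusted 0.131). The rho was -0.667 (exact permutation p = 0.0831, adjusted 0.166). Without the 2 libraries farthest from the median r was -0.772. How the authors handled reads with several matches is not stated in the labels, and its part in the level of Gm10076 was not tested.

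**Figure D3:**
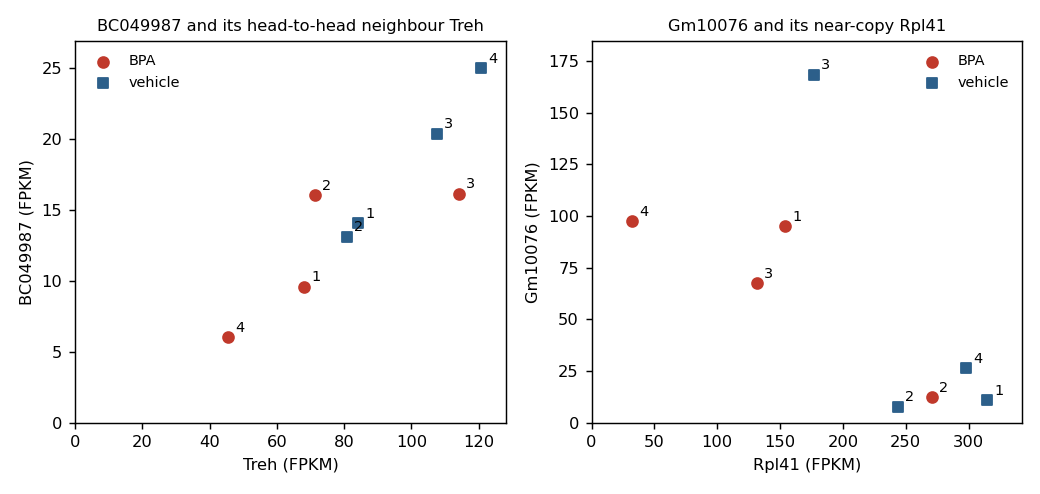
FPKM of the lincRNA BC049987 (y axis) against its head-to-head neighbour Treh (x axis) on the left, and of Gm10076 (y axis) against Rpl41 (x axis) on the right, 1 point per library with its replicate number, BPA as circles and vehicle as squares. BC049987 is high where Treh is high, and the 4 libraries with Gm10076 at 67.7 FPKM or more are those with Rpl41 at 176.8 FPKM or less.

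In all, 13 of the 157 lincRNAs matched another gene at 97% identity or more over at least 50% of a transcript. In 6 of them a match lay at another locus. Among these, Gm49207 aligned on the same strand to a transcript of the chaperone gene Ahsa1. Gm28901 aligned on the opposite strand to the splicing factor gene Hnrnpf, and it also overlaps the pseudogene Gm6430 on the opposite strand. In the other 7 the match was a gene that overlaps the lincRNA, on the opposite strand in 6. Values of all 13 are uncertain, since the labels state neither how reads with several matches were handled nor whether counting used strand.

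Small RNA genes lay on the same strand inside 9 of the lincRNAs. The snoRNAs, which guide the modification of ribosomal and other RNAs, were Snord123 in Snhg18, Snord87 in Snhg6, Snora16a, Snora44, Snora61 and Snord99 in Snhg12, and Gm23639 in Epb41l4aos, while a small Cajal body RNA, Gm26083, lay in Snhg20. MicroRNA genes lay inside E130102H24Rik (Mir101a), Gm27028 (Mir30c-2), Mir142hg (Mir142), Snhg20 (Mir6516) and 2900076A07Rik (Mir1839). Libraries of polyadenylated RNA measure the host transcript and not the mature small RNA. Mature sequences from RefSeq (GRCm38.p6) are given for the hosts of 3 well-studied microRNAs, with the seed, bases 2 to 8, in capitals. The miR-101 family targets the histone methyltransferase Ezh2, the miR-30 family is abundant in kidney epithelia, and miR-142 marks blood cells.
mmu-miR-101a-3p, in E130102H24Rik: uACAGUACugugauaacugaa
mmu-miR-30c-5p, in Gm27028: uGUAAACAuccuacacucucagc
mmu-miR-142a-3p, in Mir142hg: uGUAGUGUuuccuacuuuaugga

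The 3 seeds differ from each other. E130102H24Rik (chr4:101346531-101356735, minus strand) was at 3.52, 3.55, 3.21 and 3.63 FPKM in BPA replicates 1 to 4, against 4.76, 4.51, 3.66 and 6.09 FPKM in vehicle replicates 1 to 4. Every BPA library lay below every vehicle library, by a narrow margin at vehicle replicate 3. The change of -0.35 ± 0.13 did not pass the test (limma adjusted p = 0.412); it was -0.36 without BPA replicate 4 and -0.24 without vehicle replicate 4.

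Gm27028, whose single exon of 399 bases holds Mir30c-2, was at 0.867, 2.23, 0.462 and 4.85 FPKM in BPA, against 2.19, 0.561, 2.92 and 1.30 FPKM in vehicle, with no order between the groups (change 0.05 ± 0.45, limma adjusted p = 0.969). It rests on a mean of 12.88 reads per library. Mir142hg was at 0.857, 0.440, 1.83 and 4.05 FPKM in BPA replicates 1 to 4, against 0.609, 0.624, 0.721 and 2.78 FPKM in vehicle replicates 1 to 4 (change 0.29 ± 0.42, limma adjusted p = 0.792, with the change at -0.05 without BPA replicate 4 and 0.59 without vehicle replicate 4). Mir142hg rests on a mean of 6.75 reads per library, with 18 in BPA replicate 4 and 13 in vehicle replicate 4. Both libraries numbered 4 were the highest of their group. Vehicle replicate 4 also held both lymphoid markers, Cd79a at 17.1 FPKM and the T cell gene Cd3e at 0.903 FPKM. In BPA replicate 4 Cd79a was at 0.0415 FPKM and Cd3e at 0. The part of lymphoid cells in these values was not tested.

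Among the snoRNA hosts Snhg18 was the steadiest. It was at 14, 16.9, 14.3 and 12.7 FPKM in BPA replicates 1 to 4, against 15.3, 15.8, 15.2 and 14.9 FPKM in vehicle replicates 1 to 4, and the groups overlapped (limma adjusted p = 0.755). Its lowest library was BPA replicate 4, as it was for the other snoRNA hosts, whose values there lay farther from the rest. Epb41l4aos was at 5.23, 11.4, 5.999 and 1.41 FPKM in BPA, against 8.51, 7.03, 10.8 and 11.7 FPKM in vehicle. Snhg6 was at 4.02, 3.51, 3.27 and 1.21 FPKM in BPA, against 3.57, 2.54, 4.23 and 3.12 FPKM in vehicle.

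Snhg12 was at 1.54, 2.32, 3.32 and 0.252 FPKM in BPA, against 2.09, 2.10, 1.91 and 7.001 FPKM in vehicle, where replicate 4 stood far above the rest. Snhg20 was at 1.49, 2.20, 0.945 and 0.152 FPKM in BPA, against 2.17, 1.66, 1.34 and 3.46 FPKM in vehicle. Both had their lowest value in BPA replicate 4 and their highest in vehicle replicate 4. None of the 5 snoRNA hosts passed the test, with limma adjusted p from 0.508 to 0.794.

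A wider list of small RNA hosts, whatever their biotype, gave 17 tested genes, of which 6 are among the 157. It includes Gas5, Zfas1, Dancr and Snhg1, whose transcripts are known for their hosted snoRNAs or as regulators in their own right. None of the 17 was called by limma and none had an unadjusted p under 0.05, a level that 11.0% of all 13376 tested genes reached. In BPA minus vehicle 15 lay below 0, against 52.0% of all genes, with a median change of -0.27, against -0.01. The median shrank when libraries numbered 4 were left out. It was -0.08 without BPA replicate 4 and -0.16 without vehicle replicate 4, with 14 of 17 below 0 in each. Of all genes 50.9% and 51.9% lay below 0 there. Without both libraries the median was -0.03, with 9 of 17 below 0, against 50.8% of all genes. Within replicates 1 and 2 it was 0.02, with 7 of 17 below 0, against 50.6%. Within replicates 3 and 4 it was -0.61, with 16 of 17 below 0, against 52.1%.

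Of the other lists, Malat1, Neat1, Firre and Ftx were the tested nuclear and X-chromosome genes, with 1 above 0 and 3 below. Xist, Tsix and Jpx stayed under the filter. Of the 8 imprinted transcripts looked for, H19, Meg3, Rian, Mirg and Kcnq1ot1 were near 0 and Nespas was at 0. Peg13 averaged 4.79 ± 0.842 FPKM in BPA and 3.89 ± 0.130 FPKM in vehicle (SD, n = 4 each), a change of 0.23 that did not pass (limma adjusted p = 0.494). Airn, a silencer of its imprinted neighbours, averaged 2.80 ± 0.485 FPKM in BPA and 1.75 ± 0.809 FPKM in vehicle (SD, n = 4 each). Its change of 0.50 did not pass the test (limma adjusted p = 0.429).

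Which lincRNAs differ with exposure was asked by setting BPA against vehicle. Over all 13376 tested genes 1 gene (0.00748%) passed an adjusted p of 0.05, and 0 of the 157 lincRNAs did. At an unadjusted p under 0.05 there were 12 lincRNAs (7.64%), against 11.0% of all tested genes. Of these 4 (2.55%) were higher in BPA, against 4.18% of all genes, and 8 (5.1%) were lower, against 6.83%. All 3 shares lie below those of all genes in this fit. With each library rescaled to a common total, the split was 2 higher and 18 lower, together 12.7% of the lincRNAs against 12.8% of all genes.

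Every BPA library lay above every vehicle library for 5 lincRNAs (3.18%, against 3.23% of all genes) and below for 4 (2.55%, against 4.66%). Of the 157, 63 (40.1%) lay above 0, against 48.0% of all tested genes, 94 (59.9%) lay below 0, against 52.0%, and the median change was -0.13, against -0.01. Changes ran from -0.98 in Gm48281 to 1.04 in Gm10076. Gm48281 was at 0 in BPA replicate 4, and its change was -0.44 without that library. Noncoding classes outside the list gave like medians: -0.13 for 193 antisense genes, -0.16 for 91 processed transcripts and -0.12 for 716 processed pseudogenes. The median for 11550 coding genes was -0.01. Without BPA replicate 4 the lincRNA median was -0.05 with 88 of 157 below 0, and without both libraries numbered 4 it was -0.02 with 83 below 0. Taken alone, replicates 1 and 2 gave a median of -0.04, and replicates 3 and 4 one of -0.15.

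**Figure D4:**
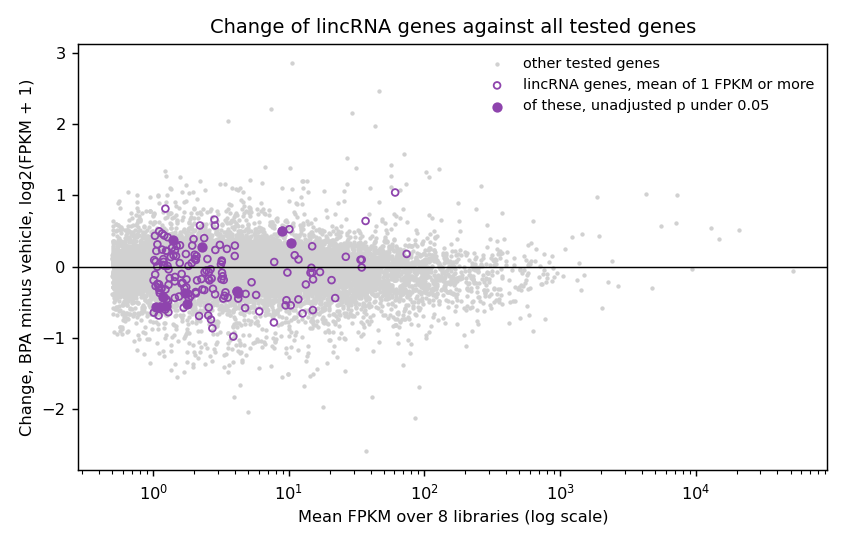
Change in BPA minus vehicle on the log2(FPKM + 1) scale (y axis) against mean FPKM (x axis, log scale) for all 13376 tested genes (grey), the 157 lincRNAs (open circles) and those of them with an unadjusted p under 0.05 (filled circles, 12 genes). The lincRNAs lie within the cloud of other genes, between -0.98 and 1.04.

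Gm20300 (chr10:30603195-30606634, minus strand), a single-exon gene, was the most abundant of the 4 lincRNAs with an unadjusted p under 0.05 that were higher in BPA. It was at 11.9, 13.4, 10.3 and 11.3 FPKM in BPA replicates 1 to 4, against 8.86, 10.2, 9.94 and 7.52 FPKM in vehicle replicates 1 to 4. The groups did not overlap, but BPA replicate 3 and vehicle replicate 2 almost met (change 0.33 ± 0.12, limma adjusted p = 0.408).

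Gm10732 (chr13:118603418-118658743, minus strand) was at 1.95, 1.59, 1.23 and 2.09 FPKM in BPA, against 1.05, 1.12, 1.14 and 1.02 FPKM in vehicle, where the libraries lay close together (change 0.37 ± 0.13, limma adjusted p = 0.387). A530017D24Rik was at 2.91, 2.40, 2.33 and 2.80 FPKM in BPA, against 2.01, 1.498, 2.30 and 2.14 FPKM in vehicle (change 0.28 ± 0.12, limma adjusted p = 0.451). It shares 28.73% of its exon bases with Gm26964, so its value is uncertain. AC135964.2 was at 10.9, 9.34, 14.9 and 7.68 FPKM in BPA, against 6.01, 6.74, 6.25 and 9.66 FPKM in vehicle, and the groups overlapped because vehicle replicate 4 lay above BPA replicates 2 and 4 (change 0.50 ± 0.20, limma adjusted p = 0.432). After these 4 came Cyrano and Malat1, given above, then Gm28151 and Gm17750, both with overlapping groups and changes of 0.44 and 0.58 (limma adjusted p = 0.473 and 0.495).

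The smallest p-value of any of the 157 belonged to 5031425E22Rik (chr5:23382308-23434269, minus strand), a gene of 7 exons that starts 172 bases from Kmt2e, a chromatin regulator, and runs away from it. It was at 1.24, 1.18, 1.45 and 1.59 FPKM in BPA replicates 1 to 4, against 2.34, 1.82, 1.97 and 2.08 FPKM in vehicle replicates 1 to 4. All BPA libraries lay below all vehicle libraries, and the change stayed between -0.41 and -0.33 with any 1 library left out. The change was -0.37 ± 0.11 (limma adjusted p = 0.365), and -0.41 without both libraries numbered 4. Kmt2e itself averaged 3.63 ± 0.904 FPKM in BPA and 3.36 ± 0.457 FPKM in vehicle (SD, n = 4 each; limma adjusted p = 0.855).

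Next came Gm6135, at 1.39, 0.637, 0.495 and 0.813 FPKM in BPA against 1.61, 1.65, 1.22 and 2.17 FPKM in vehicle (change -0.55 ± 0.18, limma adjusted p = 0.374). It rests on a mean of 8 reads per library, and BPA replicate 1 lay inside the vehicle range. Gm38150 was at 1.40, 1.97, 0.544 and 1.34 FPKM in BPA, against 2.42, 1.98, 2.29 and 2.29 FPKM in vehicle (change -0.52 ± 0.19, limma adjusted p = 0.403). Its groups did not overlap, though BPA replicate 2 and vehicle replicate 2 almost met. The remaining 4 with an unadjusted p under 0.05 beside E130102H24Rik, namely Gm49282, Gm15889, Gm40123 and Gm10787, had overlapping groups, changes from -0.57 to -0.36 and limma adjusted p from 0.422 to 0.453. The fourth lincRNA whose BPA libraries all lay below vehicle was 1700096K18Rik, named after its values were seen, at 0.541 to 1.86 FPKM in BPA and 1.92 to 2.65 FPKM in vehicle (limma adjusted p = 0.457, with a change of -0.45, and -0.24 without BPA replicate 4).

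The 8 lincRNAs with the smallest p higher in BPA had GC contents of 37.09% to 43.81%, and the 8 lower ones of 41.13% to 54.63%, against a median of 47.8% over the 157. Across the 157 genes the change was lower where GC content was higher (Spearman -0.363), and likewise across all tested genes with a known GC content (-0.402). Genes of 1 library share its depth and base composition, so these values describe the libraries and carry no p. With each library corrected for GC content, the lincRNAs with an unadjusted p under 0.05 numbered 0 higher and 14 lower, or 8.92%, against 7.49% of all genes in that fit.

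The spread between libraries of a group was wide for these genes. The median within-group SD was 0.399 on the log2(FPKM + 1) scale, against 0.209 for coding genes, and the median of highest over lowest library was 3.65-fold, against 1.81-fold. The median lincRNA had 52.8 reads per library, against 424 for coding genes, and 15 of the 157 had a 0 in at least 1 library. The median size of their change, without its sign, was 0.287, against 0.151 for coding genes. Single libraries decided some means: Gm26880, named after its values were seen, was at 3.72, 4.54, 16.96 and 10.7 FPKM in BPA replicates 1 to 4, against 4.89, 5.69, 1.13 and 40.8 FPKM in vehicle replicates 1 to 4.

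BPA replicate 4 held the lowest value of 61 of the 157 lincRNAs (38.85%), against 28.03% over all tested genes, and the highest value of 23 (14.65%), against 24.07%. The other BPA libraries held the lowest value of 7, 8 and 20 lincRNAs, and vehicle replicates 1 to 4 that of 11, 10, 15 and 22. The median deviation of the lincRNAs from their mean over the 8 libraries was -0.295 in BPA replicate 4, against -0.0285 over all tested genes in that library. It lay between -0.0137 and 0.127 in the other BPA libraries, and between 0.00618 and 0.0795 in vehicle. In BPA replicate 4, 11 of the lincRNAs were at 0, against 0 to 4 in each other library. Genes detected there, 17174, were likewise fewer than in any other library, and the part of this in the lincRNA values was not tested.

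**Figure D5:**
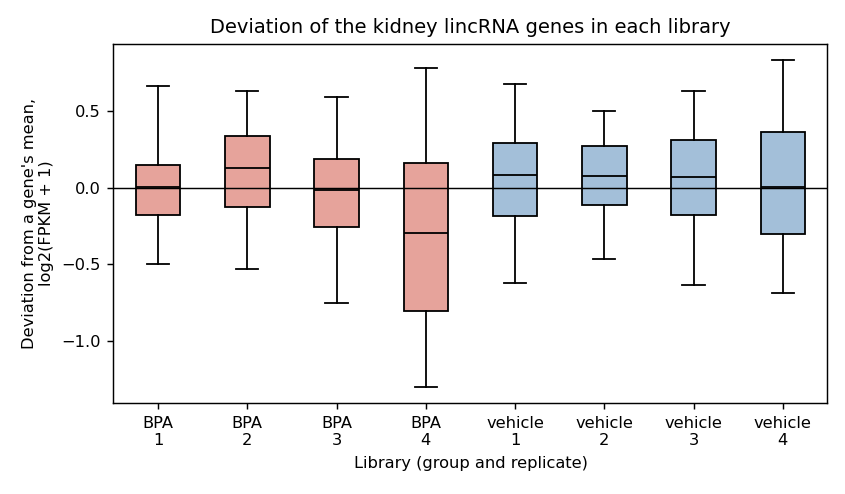
Deviation of each of the 157 lincRNAs from its own mean over 8 libraries on the log2(FPKM + 1) scale (y axis), by library (x axis), BPA left of vehicle. Boxes span the quartiles with the median as a line, and whiskers reach the 5th and 95th percentiles; the BPA replicate 4 box has its median at -0.295 while the other medians lie between -0.0137 and 0.127.

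Coding neighbours were close to some of the lincRNAs. The median distance between the start of a lincRNA and that of its nearest coding gene was 24001 bases, and 26 lincRNAs started within 1000 bases of a coding start. Head-to-head pairs, with starts at most 5000 bases apart on opposite strands and pointing away from each other, numbered 30. Among the neighbours was a regulator of kidney development, Lhx1, whose start lies 125 bases from that of Lhx1os. Lhx1os was at 13.1, 13.2, 10.9 and 3.73 FPKM in BPA replicates 1 to 4, against 13.1, 10.4, 15.5 and 14.2 FPKM in vehicle replicates 1 to 4, low only in BPA replicate 4 (change -0.46 ± 0.34, limma adjusted p = 0.601, and -0.08 without that library).

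The head-to-head lincRNAs had promoters unlike those of the others. The 17 with a RefSeq promoter had a median GC content of 70.3% and 32 CG dinucleotides, with an observed over expected ratio of 0.926, while the other 61 had 50.3%, 6 and 0.353. GGGCGG was present in 64.7% of the 17 and in 24.6% of the 61, and TATAAA in 5.88% and 16.4%. The Gm17586 promoter printed above is of the first kind and starts 168 bases from Mafg, a small Maf transcription factor. The BC049987 promoter is an exception, with 2 CG dinucleotides and TATAAA shortly before its start. The RefSeq start was not always the start that defined the pair. It lay up to 3919 bases away among the 17 (Gm32391) and up to 55434 bases away among the 61 (Gm35281). In Gm17586, Snhg18 and Lhx1os, 168, 148 and 125 bases from their neighbours, the 250 bases before the start also hold the neighbour's start. They do so too in 2010320M18Rik, 1700022N22Rik, 1110019D14Rik, 4833418N02Rik and 1110006O24Rik, 102, 19, 8, 72 and 92 bases from theirs. Counted from the RefSeq start, the same holds for Fam120aos, Gm32391 and 4632404H12Rik. Most of the 17 windows thus hold the start of a coding gene. The values therefore describe these windows and not lincRNA promoters alone. No test was made of the differences between the 17 and the 61.

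Of the 30 head-to-head pairs, 28 had a tested neighbour. Their median Pearson r over the 8 libraries was -0.00199, and 14 of the 28 were positive. The median was 0.0924 over all 128 lincRNAs with a tested nearest coding gene, 0.0596 for 41 other pairs on opposite strands and 0.120 for 59 pairs on the same strand.

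A single head-to-head pair passed adjustment over the 28: BC049987 and Treh, 995 bases apart. Treh encodes trehalase, an enzyme of the tubule brush border that splits trehalose. BC049987 (chr9:44670453-44672238, minus strand) was at 9.59, 16.0, 16.1 and 6.03 FPKM in BPA replicates 1 to 4, against 14.04, 13.1, 20.4 and 24.95 FPKM in vehicle replicates 1 to 4. Treh was at 68.0, 71.4, 114 and 45.6 FPKM in BPA replicates 1 to 4, against 84.2, 80.8, 107.7 and 120.7 FPKM in vehicle replicates 1 to 4. Both were lowest in BPA replicate 4 and highest in vehicle replicate 4, and the groups overlapped for both.

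Over the 8 libraries r was 0.919 (2-sided exact permutation p = 0.00141, adjusted p = 0.0396) and rho was 0.905 (p = 0.00456, adjusted p = 0.128, which does not pass). Without the 2 libraries farthest from the median, which are both libraries numbered 4, r was 0.719. Groups of 4 are too few for a value within each. Neither gene differed between the groups beyond its spread, with changes of -0.61 ± 0.32 for BC049987 (limma adjusted p = 0.492, and -0.18 without both libraries numbered 4) and -0.45 ± 0.26 for Treh (limma adjusted p = 0.527).

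The nearest coding genes of the lincRNAs named for their level or their p-value were read out of the same fit. Of 25 such neighbours 24 were tested and 0 called, 1 had an unadjusted p under 0.05 where 11.0% of all tested genes did, the smallest limma adjusted p was 0.374 and the changes ran from -0.41 to 0.35. The lowest was Ifrd2, beside Gm38150, at 45.0 ± 6.02 FPKM in BPA and 60.1 ± 5.85 FPKM in vehicle (SD, n = 4 each).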

How the data were processed

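RNA sequencing of polyadenylated kidney RNA gave 8 libraries, 4 BPA and 4 vehicle. The authors deposited 1 table of FPKM values with gene lengths, coordinates, symbols and biotypes. DESeq2 1.20.0 and the build GRCm38 are named, without a role, per the submitters' processing notes; aligner, counter and strand setting: not given in the sources used here. Columns named for BPA match those libraries, and the others, a letter and a number, were read as vehicle because no other group exists, with that number as the replicate. FPKM times length came out as whole reads, within 0.01 reads, in 100% of values of up to 20 reads, so low levels rest on few reads, with large counting error. The size value that scaled a library was not its total of recovered reads. It was 1.628e+07 against 17226655 reads in BPA replicate 3, and 1.735e+07 against 16885677 reads in BPA replicate 1.

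Changes are BPA minus vehicle on log2(FPKM + 1), a scale that understates the change of low genes. They were fitted with limma 3.58.1 (R 4.3.3; trended, robust variance, no covariate) over the 13376 genes with a mean of at least 0.5 FPKM, with Benjamini-Hochberg adjustment over all of them and a threshold of 0.05; the ± beside a change is its SE. On simulated FPKM tables of these libraries the same code was tested before use. All 157 lincRNAs pass the filter, because their rule is stricter. A gene that is high in 1 library alone can pass the rule. Correlations between genes are over 8 libraries on log2(FPKM + 1), with 2-sided exact permutation p. Chi-square per gene between libraries of a group was 14.3 to 91.0, so none was a duplicate.

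Positions, neighbours and the small RNA genes inside lincRNAs come from the deposited coordinates and biotypes. Exons, shared exon bases, GC content and M21 types come from GENCODE M21, in which 54409 gene identifiers were found. Copies were sought among its transcripts with blastn 2.17.0 (e-value 1e-20, at least 97% identity over 100 bases). GC content was known for 99.91% of tested genes. Promoters and microRNAs are RefSeq's. Other calculations used Python 3.11.15, numpy 2.4.6, pandas 2.3.3, scipy 1.17.1 and matplotlib 3.10.9.

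Named were the 10 lincRNAs with the highest mean, any called ones, the 8 per direction with the smallest p, members of fixed lists, the nearest coding gene of those named for level or p, and the genes on either side of the threshold; further genes are said to be named after their values were seen or belong to the copies, promoters and pairs described. The members, lists and rules were chosen with earlier results of these data known. Alternatives were other pseudocounts, filters, scalings, variance models, library weights, limma-voom on recovered reads, a replicate block, a GC correction and libraries left out; values within replicates 1 and 2 and within 3 and 4 were added after seeing the data. Metabolite data were not analysed here, and some genes are not reported here.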

Additional observations from a re-analysis of the deposited data

Results flagged for a closer look

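In 5 of the 64 groups of 4 libraries looked at for the named lincRNAs (7.81%), 1 library stood far from the other 3 by Dixon's criterion. For independent, normally distributed values chance gives about 1 in 20 such groups. FPKM of few reads, from the same 8 libraries for each gene, need not be such values, so that share is not a chance rate for these data. Malat1 was at 85.9 FPKM in BPA replicate 4, against 29.3 to 38.8 FPKM in the other BPA libraries. Gm10076 was at 168.5 FPKM in vehicle replicate 3, against 7.72 to 26.4 FPKM in the other vehicle libraries. 1810058I24Rik was at 28.1 FPKM in vehicle replicate 3, against 19.2 to 20.3 FPKM. Snhg12 was at 7.001 FPKM in vehicle replicate 4, against 1.91 to 2.10 FPKM. Mir142hg was at 2.78 FPKM (13 reads) in vehicle replicate 4, against 0.609 to 0.721 FPKM (3 reads each).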

How the results depend on the processing

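No lincRNA of the 157 was called under any of the 22 alternatives, where their smallest adjusted p lay between 0.158 (library weights) and 0.671 (no filter). A threshold of 2 FPKM leaves 85 lincRNAs. At an unadjusted p under 0.05 the 4 higher became 2 with a common total, 12 with library weights, 0 after GC correction, 13 within replicates 1 and 2 and 10 within replicates 3 and 4, and 1 to 7 with 1 library left out. The 8 lower became 18 with a common total, 3 with limma-voom, 14 after GC correction, 5 without both replicates 4 and 15 within replicates 3 and 4, and 5 to 19 with 1 library left out. The replicate block gave 4 higher and 13 lower; same-numbered libraries deviated together by r of -0.0329 to 0.138 and not every library correlated best with its own number, so the numbers were not taken as pairs. These counts together were 3.82% (limma-voom) to 15.9% of the lincRNAs, against 6.93% to 14% of all genes, and were above the share of all genes with library weights (14.6% against 14%), the replicate block (10.8% against 10.3%), GC correction, without BPA replicate 2 (15.9% against 12.6%), without vehicle replicate 3 (8.92% against 8.22%), and within either pair of replicates (14.6% against 10.8%, and 15.9% against 11.4%). The causes were not tested. The median change stayed below 0 in each alternative, at -0.185 to -0.0451 with 1 library left out.

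Of 704 alternative values of 32 named lincRNAs, 30 changed sign and 674 did not. Changes of sign were in quantile scaling Gm12678 (0.072); after GC correction Gm12678 (0.0118) and AI314278 (-0.0219); with library weights Gm10804 (0.0584) and Snhg6 (0.0924). Without both replicates 4 they were Gm10804 (0.0949), Snhg6 (0.0646), Tmem250-ps (-0.0215), 2900097C17Rik (-0.0526), Gm44386 (0.11) and Snhg12 (0.13). Within replicates 1 and 2 they were Gm10804 (0.10), Snhg6 (0.24), Gm44386 (0.32), 1810058I24Rik (0.18) and Epb41l4aos (0.0103), and within replicates 3 and 4 Gm12678 (0.49) and AI314278 (-0.043). With 1 library left out AI314278 ran from -0.0105 to 0.274, Gm12678 from -0.15 to 0.18, 2900097C17Rik from -0.0451 to 0.25, 1810058I24Rik from -0.304 to 0.0225, Gm10804 from -0.231 to 0.0419, Snhg6 from -0.306 to 0.0879 and Mir142hg from -0.0493 to 0.59. LincRNAs under 2 FPKM had a median of 19.9 reads per library, and those of 10 FPKM or more a median of 430 reads.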
